A study of Homo sapiens with 9 samples.

Results

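The genes described here are 31 genes of the NRF2 antioxidant programme, of thioredoxin and glutathione chemistry and of NADPH supply, taken by gene name from a table of 36785 genes. All 31 were in the table and all 31 passed the filter on low counts, with 21296 genes tested in all. RNA was selected by its poly(A) tail and sequenced from SKOV3, a human ovarian carcinoma line with an amplified ERBB2 gene. The 9 libraries fall into 3 groups of 3: sh1, labelled as STXBP6 knockdown 1, sh3, labelled as STXBP6 knockdown 3, and shNC, labelled NC and used as the control. All 3 groups, shNC included, were transduced with lentivirus, and the labels give no time after transduction and no selection. STXBP6 encodes amisyn, a syntaxin-binding protein of the exocytosis machinery, and the comparisons ask what the hairpins labelled against it did to this gene set. Nothing in the labels ties the 3 libraries of a group to independent cultures, and p-values here reflect only library-to-library spread, which may be technical. In bulk RNA, fewer cells of a kind and less RNA per cell cannot be told apart.

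NRF2, the product of NFE2L2, is a transcription factor that KEAP1 holds in the cytoplasm and passes to the ubiquitin ligase CUL3 for breakdown. Oxidants and electrophiles modify cysteines of KEAP1, and NRF2 then accumulates, pairs with small MAF proteins and binds antioxidant response elements in the promoters and enhancers of its targets. Thioredoxin and glutathione are the main thiol reductants of the cytosol, and both are kept reduced with NADPH, which the pentose phosphate pathway and malic enzyme supply. Much of NRF2 control acts on the protein, which these RNA data do not measure.

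The libraries held 57654447 to 69264400 counts each. STXBP6 itself held 7, 4 and 26 counts in sh1, 20, 31 and 18 in sh3 and 4, 0 and 15 in shNC. Its level was thus not lower with either hairpin, and every sh3 library was above every shNC library in CPM, which goes against the labels, at counts near the detection limit (log2 0.87 ± 1.02 with sh1 and 1.81 ± 1.01 with sh3, SE, adjusted p = 0.56 and 0.23, edgeR; exact two-sided permutation test on CPM, p = 0.5 with sh1 and p = 0.1 with sh3; 3 libraries against 3 cannot give a p below 0.1). Every direction below is for the libraries labelled sh1 and sh3 and not for a measured loss of STXBP6. All 8 epithelial and SKOV3 markers examined had a mean of at least 1 FPKM, and their summed level was 719 to 749 FPKM in sh1, 1144 to 1189 in sh3 and 1123 to 1229 in shNC. ERBB2 made up most of this sum, with means of 500.4, 853 and 910.1 FPKM in sh1, sh3 and shNC. The keratins were split. KRT19 was lowest in sh1, like ERBB2, averaging 13.97 FPKM in sh1, 30.99 in sh3 and 31.89 in shNC. KRT18 was also lowest in sh1, with 43.4 FPKM in sh1, 63.3 in sh3 and 57.1 in shNC. KRT7 averaged 43.2 FPKM in sh1, 25.1 in sh3 and 23.5 in shNC, and KRT8 97.8 in sh1, 152 in sh3 and 97.3 in shNC. PAX8, MUC1 and EPCAM were lower with sh1 (log2 -1.02, -1.39 and -0.55, adjusted p at most 0.013, edgeR). With sh3 they gave -0.64, -1.25 and -0.40 (adjusted p = 3.3e-06, 7.9e-07 and 0.078, edgeR). A list of 20 liver genes, 19 of them in the table, summed to 3.40 to 3.61 FPKM in sh1, 4.96 to 9.86 in sh3 and 1.05 to 1.43 in shNC. SERPINA1 alone averaged 2.72 FPKM in sh1, 1.01 in sh3 and 0.635 in shNC, and ALB 0.0275, 2.37 and 0.0652. Of these liver genes 9 had every sh3 library above the other 6 libraries, with 8 at 0 in all sh1 libraries, 0 at 0 in all sh3 libraries and 4 at 0 in all shNC libraries. Summed leukocyte markers were 10.4 to 11.3 FPKM in sh1, 17.6 to 18.7 in sh3 and 13.7 to 15.1 in shNC. CD68 made up most of this sum, with means of 10.8 FPKM in sh1, 17.9 in sh3 and 14.2 in shNC. No other leukocyte marker averaged 1 FPKM or more. Fibroblast markers summed to 19.7 to 20.7 FPKM in sh1, 13.8 to 15.2 in sh3 and 16.9 to 20.3 in shNC. This sum hides opposite changes of its most abundant genes. COL1A1 averaged 8.77 FPKM in sh1, 7.00 in sh3 and 5.26 in shNC, and LUM 6.75 in sh1, 3.38 in sh3 and 9.59 in shNC. Endothelial markers summed to 1.201 to 1.56 FPKM in sh1, 2.87 to 3.08 in sh3 and 2.30 to 2.66 in shNC. Most of the endothelial sum was KDR, with means of 1.02 FPKM in sh1, 2.67 in sh3 and 1.74 in shNC. The part of these shifts in the results below was not tested.

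Most members that changed were lower with the hairpins, by small amounts. A gene is called here at a Benjamini-Hochberg adjusted p under 0.05 in edgeR's quasi-likelihood test over all tested genes. With sh1, 21 members were called, 16 lower and 5 higher, against 38.7% of all tested genes called, 18.8% lower and 19.9% higher. With sh3, 13 were called, 11 lower and 2 higher, against 26.9% of all tested genes called, 12.4% lower and 14.4% higher. Both contrasts use the same shNC libraries. With both hairpins 9 members were lower, namely NFE2L2, PIR, PRDX6, SLC7A11, GSR, GPX4, GSTA4, PGD and TKT, and 2 were higher, SRXN1 and TXN, against 8.43% of all tested genes lower and 10.6% higher with both. No member was called in opposite directions with the 2 hairpins, and 8 were called with neither: KEAP1, GCLC, GSS, GSTP1, GSTM3, GPX2, GPX3 and AIFM2. The shares of all tested genes called in opposite directions or with neither were not counted. These numbers are therefore not read as a trait of the members.

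Abundant genes are called more often, so the calls with each hairpin were set beside genes with a mean of at least 1000 counts. Of 25 members above that level, sh1 had 19 called, 14 of them lower and 5 higher, against 62.9% called, 26.7% lower and 36.2% higher among 9161 such genes. For sh3 the members gave 12 called, 10 lower and 2 higher, against 46.8% called, 19.4% lower and 27.4% higher. Read against abundant genes, the total called was near the background with sh3 and somewhat above it with sh1, with more members lower and fewer higher than among such genes. The median log2 fold change over members was -0.20 with sh1 and -0.10 with sh3, against -0.02 and -0.01 over all tested genes. Of 31 members, 5 with sh1 and 1 with sh3 were called with an absolute log2 fold change of at least 0.5. The shares of all tested genes were 15.3% and 7.99%, so the members were near the background with sh1. The CPM ranges of the groups did not overlap at 21 members with sh1 and 16 with sh3, against 49.9% and 40.5% of all tested genes. Shares among abundant genes were not counted for non-overlapping ranges, for the 0.5 threshold or for calls with both hairpins. How far abundance accounts for the members' numbers there was not tested. In total counts, the members took 0.433%, 0.429% and 0.435% of the sh1 libraries and 0.481%, 0.471% and 0.477% of the sh3 libraries. Their share of the shNC libraries was 0.501%, 0.506% and 0.525%, so the groups did not overlap.

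**Figure D1:**
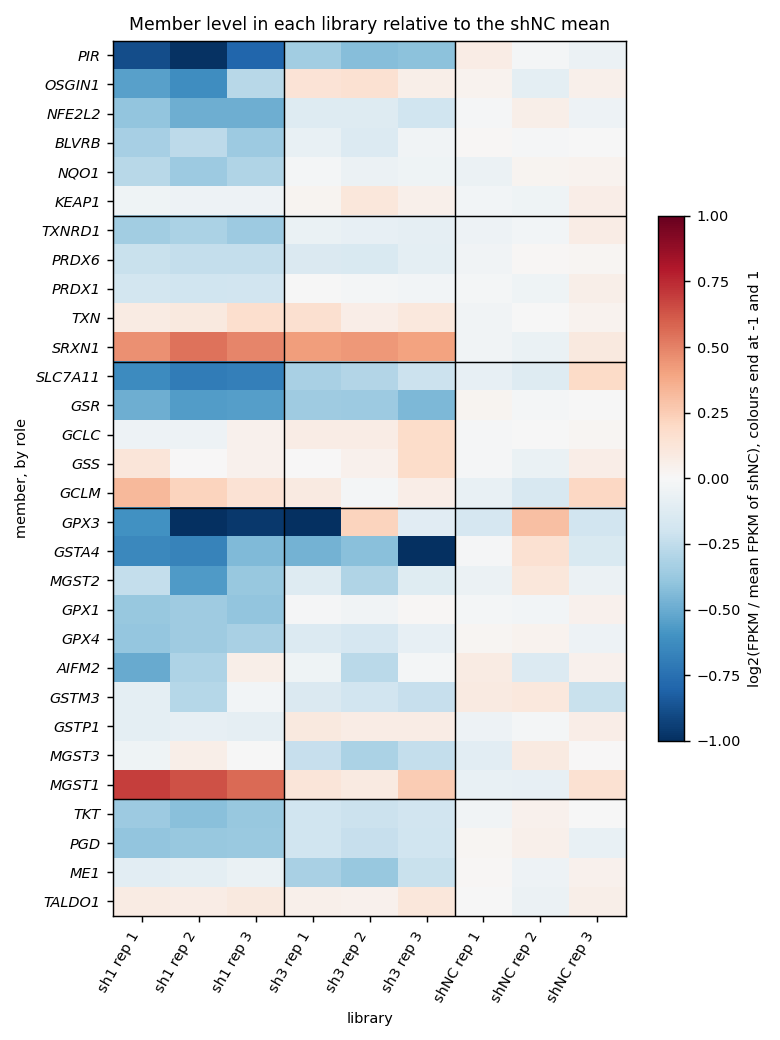
Level of 30 members in each of the 9 libraries, as log2 of the FPKM over the mean FPKM of shNC (colour), with members in rows by role and libraries in columns; GPX2, with 0 to 16 counts a library, is left out. More members were called lower with sh1 (16) than with sh3 (11), as were more of all tested genes (18.8% against 12.4%). The SRXN1 row is red in all 6 libraries labelled sh1 and sh3 and the MGST1 row in sh1.

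The members spanned levels from the most abundant antioxidant enzymes of the cell to genes near the detection limit. In shNC the peroxiredoxin PRDX1 had the highest mean, 410 ± 14.9 FPKM, followed by GSTP1 at 182 ± 7.35 and TXN at 135 ± 3.20 (SD, n = 3 each). GPX1 at 114 ± 3.12, NQO1 at 94.3 ± 3.40 and GPX4 at 91.3 ± 2.87 FPKM came next, and NQO1 and GPX4 did not differ beyond their spread. At the low end, GPX3 averaged 0.214 ± 0.0514 FPKM in sh1, 0.337 ± 0.162 in sh3 and 0.407 ± 0.0811 in shNC. GPX2, the gastrointestinal glutathione peroxidase, held 7, 6 and 16 counts in sh1, 15, 0 and 7 in sh3 and 6, 13 and 12 in shNC. The standard error of its log2 fold change was 0.95 with sh1, so a change of GPX2 of the size seen in other members could not be detected. The GPX2 span also overlaps CHURC1 on the other strand, with 2731 mean counts against 9 for GPX2.

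**Figure D2:**
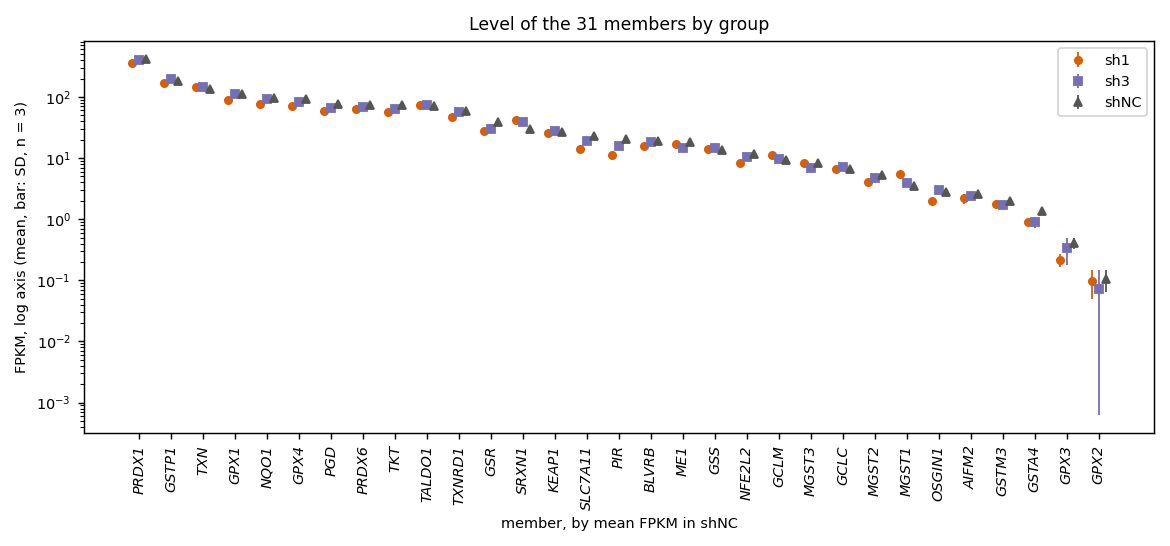
Mean FPKM of each of the 31 members by group on a log axis, with the SD of 3 libraries as bars and members ordered by their shNC mean. The levels run from PRDX1 at about 410 FPKM to GPX2 near 0.107 FPKM in shNC, and the symbols of the 3 groups lie close together for most members.

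The NRF2 transcript and its targets in this group were lower with sh1, and fewer of them with sh3. NFE2L2 (ENSG00000116044, GRCh38 chromosome 2, 177218667 to 177392697, minus strand) had 8.72, 8.16 and 8.17 FPKM in sh1, 10.5, 10.5 and 9.97 in sh3, and 11.37, 11.96 and 11.04 in shNC. All sh1 values lay below all sh3 values, and these below all shNC values. Its log2 fold change was -0.42 ± 0.04 with sh1 and -0.15 ± 0.04 with sh3 (SE, adjusted p = 4.5e-06 and 0.014, edgeR). The sh3 call was lost without sh3 replicate 3 (-0.12, adjusted p = 0.072) and without shNC replicate 2 (-0.11, adjusted p = 0.067; range 0.002 to 0.072 over the alternatives). In the table the NFE2L2 span overlaps HNRNPA3 on the other strand, which had a mean of 42242 counts against 10374 for NFE2L2. The sources used here do not give how strand entered the counting, so the NFE2L2 level is uncertain.

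KEAP1 (ENSG00000079999, chromosome 19, 10486125 to 10503356), the adaptor that marks NRF2 for breakdown, was not called in any comparison in the main fit. It had 25.8, 25.6 and 25.6 FPKM in sh1, 27.0, 28.7 and 27.5 in sh3 and 26.0, 25.8 and 27.8 in shNC, with overlapping ranges against shNC. Its log2 fold change was -0.02 ± 0.04 with sh1 and 0.07 ± 0.04 with sh3 (SE, adjusted p = 0.8 and 0.24, edgeR). Leaving out shNC replicate 3 gave 0.10 with sh3 (adjusted p = 0.04, range 0.04 to 0.55) and turned the sh1 sign, at 0.02 (adjusted p = 0.66). Between the hairpins its CPM ranges did not overlap, with 0.08 ± 0.04 for sh3 against sh1 (SE, adjusted p = 0.14, edgeR), and both limma fits on FPKM called it (0.11, adjusted p = 0.048). The ratio of KEAP1 to NFE2L2 FPKM was 2.95, 3.14 and 3.13 in sh1, 2.58, 2.73 and 2.76 in sh3 and 2.29, 2.15 and 2.52 in shNC. The 3 groups of this ratio did not overlap.

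PIR (ENSG00000087842, chromosome X, 15384799 to 15493333), which encodes pirin, an iron-binding nuclear protein, had the largest fall with sh1 among called members. It had 11.3, 10.5 and 12.1 FPKM in sh1, 16.4, 15.5 and 15.7 in sh3 and 21.9, 20.6 and 20.1 in shNC, 3 ranges without overlap. The fall was 1.81-fold with sh1 and 1.31-fold with sh3 (log2 -0.85 ± 0.06 and -0.39 ± 0.06, SE, adjusted p = 4.2e-07 and 4.0e-04, edgeR). NQO1, the quinone reductase widely used as a readout of NRF2, had 78.0, 73.4 and 76.4 FPKM in sh1, 93.0, 90.5 and 91.8 in sh3 and 90.4, 96.2 and 96.4 in shNC. It was below shNC in every sh1 library, while sh3 and shNC overlapped. It fell by 0.28 ± 0.03 on the log2 scale with sh1 (SE, adjusted p = 4.5e-05, edgeR) and gave -0.04 ± 0.03 with sh3 (adjusted p = 0.48).

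OSGIN1, an oxidative stress-induced growth inhibitor, had 1.896, 1.79 and 2.27 FPKM in sh1, 3.04, 3.06 and 2.86 in sh3 and 2.83, 2.58 and 2.86 in shNC. It fell with sh1 (log2 -0.44 ± 0.10, adjusted p = 0.0034, edgeR) and was not called with sh3 (0.12 ± 0.10, adjusted p = 0.43). In the table its span overlaps MLYCD on the same strand, with 717 mean counts against 990 for OSGIN1, so its own level is uncertain. The biliverdin and flavin reductase BLVRB averaged 15.5 ± 0.553 FPKM in sh1, 18.3 ± 0.662 in sh3 and 19.3 ± 0.144 in shNC (SD, n = 3 each), and was called with sh1 at -0.29 (edgeR, adjusted p = 4.9e-04). In all, 5 of these 6 members fell with sh1 and 2 of 6 with sh3, and none rose. These 6 are not all the NRF2 targets examined, and rises were called elsewhere. Among members of other roles SRXN1 and TXN were higher with both hairpins, and GCLM, TALDO1 and MGST1 with sh1. HMOX1, which NRF2 induces, was also higher with sh1 (log2 0.74, adjusted p = 4.5e-06, edgeR). Of all tested genes, 18.8% were lower and 19.9% higher with sh1, and 12.4% lower and 14.4% higher with sh3. Of genes with a mean of at least 1000 counts, 26.7% were lower and 36.2% higher with sh1, and 19.4% and 27.4% with sh3.

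**Figure D3:**
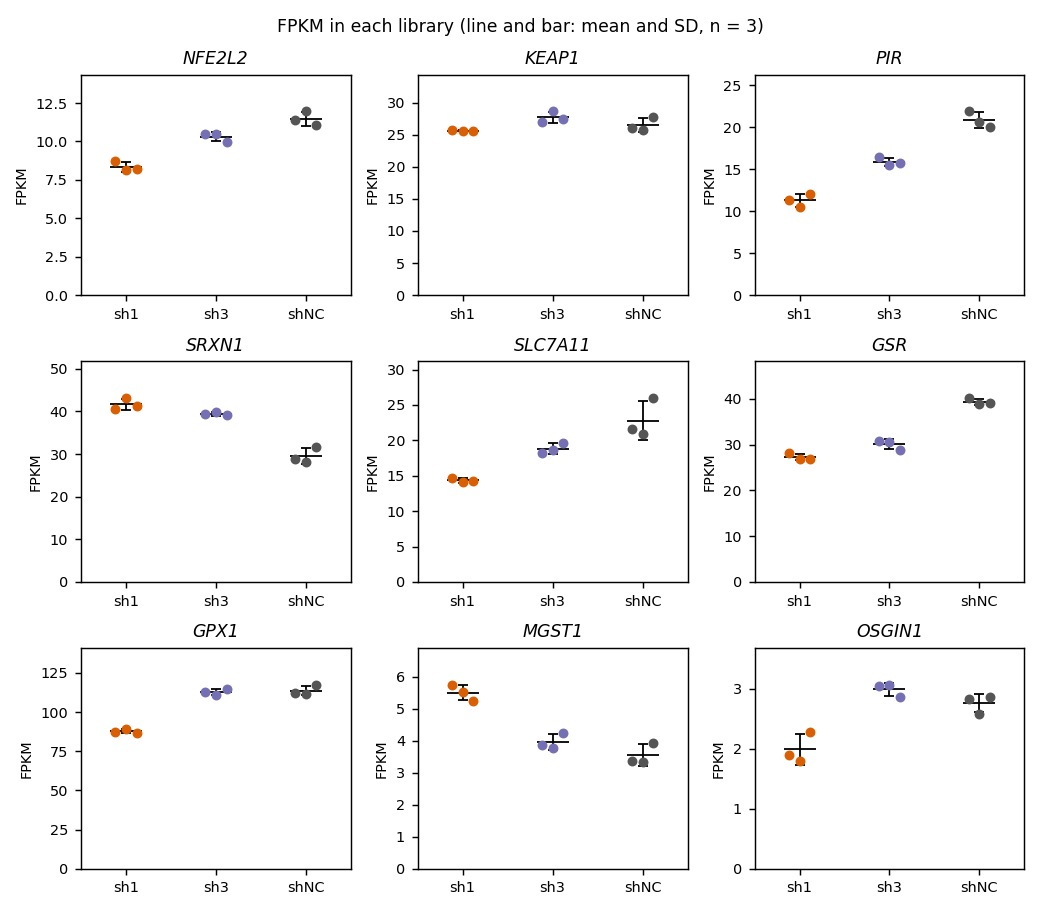
FPKM of 9 members in each library, with sh1, sh3 and shNC from left to right, points for libraries and a line and bar for the mean and SD (n = 3). SRXN1 stands near 40 FPKM in both sh1 and sh3 and at 28.2 to 31.6 in shNC, NFE2L2 and PIR are lowest in sh1, between in sh3 and highest in shNC, and MGST1 is highest in sh1.

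The thioredoxin system was split in direction. Sulfiredoxin, SRXN1 (ENSG00000271303, chromosome 20, 646615 to 653200), repairs peroxiredoxins whose active cysteine has been over-oxidised. It had 40.6, 43.1 and 41.4 FPKM in sh1, 39.4, 39.9 and 39.1 in sh3 and 28.8, 28.2 and 31.6 in shNC. All 6 values in libraries labelled sh1 and sh3 lay above all shNC values. SRXN1 rose 1.44-fold with sh1 and 1.34-fold with sh3 (log2 0.53 ± 0.05 and 0.42 ± 0.05, SE, adjusted p = 2.3e-06 and 3.3e-05, edgeR). Thioredoxin, TXN, averaged 147 ± 4.70 FPKM in sh1, 146 ± 4.64 in sh3 and 135 ± 3.20 in shNC (SD, n = 3 each). It rose by 0.15 ± 0.04 with sh1 and by 0.11 ± 0.04 with sh3 on the log2 scale (SE, adjusted p = 0.0083 and 0.046, edgeR). The sh3 call of TXN was lost under 8 of 17 alternatives, with an adjusted p of 0.029 to 0.17 over them. Among these were the fits without sh1 replicate 2 (0.12), sh3 replicate 1 (0.09), sh3 replicate 3 (0.13), shNC replicate 1 (0.10) and shNC replicate 2 (0.12).

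The other 3 members of this group were lower with sh1. PRDX1, the abundant cytosolic peroxiredoxin that SRXN1 acts on, had 361, 357 and 358 FPKM in sh1, 409, 403 and 402 in sh3 and 404, 398 and 426 in shNC. Its sh1 libraries lay below the other 6, whose ranges overlapped, and the log2 fold changes were -0.16 ± 0.03 with sh1 and -0.02 ± 0.03 with sh3 (SE, adjusted p = 0.0012 and 0.76, edgeR). TXNRD1, the selenoenzyme that reduces thioredoxin with NADPH, averaged 46.7 ± 0.733 FPKM in sh1, 56.1 ± 0.479 in sh3 and 59.2 ± 2.75 in shNC (SD, n = 3 each). It fell by 0.31 ± 0.03 on the log2 scale with sh1 (SE, adjusted p = 2.1e-05, edgeR) and gave -0.08 ± 0.03 with sh3 (adjusted p = 0.14), a value called under library totals alone (-0.10, adjusted p = 0.046). PRDX6, a peroxiredoxin that uses glutathione, averaged 63.5 ± 0.393 FPKM in sh1, 68.1 ± 1.49 in sh3 and 74.6 ± 1.49 in shNC (SD, n = 3 each). It was lower with both hairpins, at -0.20 and -0.13 (edgeR, adjusted p = 1.2e-04 and 0.0046).

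Among transcripts of glutathione supply, SLC7A11 and GSR were lower with both hairpins, and of the synthesis enzymes GCLM alone was called, higher with sh1. SLC7A11 (ENSG00000151012, chromosome 4, 138164097 to 138242349), the transport subunit of the cystine-glutamate exchanger, had 14.7, 14.1 and 14.2 FPKM in sh1, 18.2, 18.6 and 19.7 in sh3 and 21.6, 20.9 and 26.0 in shNC. The 3 ranges did not overlap, and shNC replicate 3 was the highest library. SLC7A11 fell 1.56-fold with sh1 and 1.21-fold with sh3 (log2 -0.64 ± 0.07 and -0.28 ± 0.07, SE, adjusted p = 1.4e-05 and 0.0096, edgeR). The other subunit of the exchanger, SLC3A2, named after its values were seen, was called with neither (0.14 and -0.08, adjusted p = 0.23 and 0.57, edgeR). SLC3A2 had 65.6, 63.8 and 67.0 FPKM in sh1, 56.7, 55.6 and 59.7 in sh3 and 55.5, 54.2 and 72.2 in shNC. The spread of shNC, with replicate 3 highest, limits this comparison. Glutathione reductase, GSR (ENSG00000104687, chromosome 8, 30678066 to 30727846), had 28.1, 26.7 and 26.9 FPKM in sh1, 30.8, 30.7 and 28.9 in sh3 and 40.1, 38.8 and 39.2 in shNC. All 6 libraries labelled sh1 and sh3 lay below the shNC libraries. GSR fell 1.41-fold with sh1 and 1.30-fold with sh3 (log2 -0.50 ± 0.04 and -0.38 ± 0.04, SE, adjusted p = 5e-07 and 1.1e-05, edgeR).

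The glutamate-cysteine ligase that makes the precursor of glutathione has a catalytic subunit, GCLC, and a modifier subunit, GCLM. GCLM had 11.8, 11.02 and 10.4 FPKM in sh1, 10.02, 9.30 and 9.86 in sh3 and 8.97, 8.41 and 10.9 in shNC, where shNC replicate 3 overlapped the sh1 range. It rose by 0.26 ± 0.08 on the log2 scale with sh1 (SE, adjusted p = 0.025, edgeR). This call was lost under 7 of 17 alternatives (adjusted p 2.2e-04 to 0.098), among them the fits without sh1 replicate 1 (0.23), sh1 replicate 2 (0.27), shNC replicate 1 (0.23) and shNC replicate 2 (0.19). With sh3 GCLM gave 0.05 ± 0.08 (SE, adjusted p = 0.73, edgeR), and 0.17 (adjusted p = 0.046) without shNC replicate 3. GCLC averaged 6.57 ± 0.246 FPKM in sh1, 7.20 ± 0.319 in sh3 and 6.65 ± 0.0795 in shNC (SD, n = 3 each). Its log2 fold changes were 0.02 and 0.12 (edgeR, adjusted p = 0.83 and 0.075), the second called with the replicate block (adjusted p = 0.049). Glutathione synthetase, GSS, gave 0.09 and 0.08 (edgeR, adjusted p = 0.19 and 0.28). The GCLM to GCLC ratio in FPKM was 1.83, 1.71 and 1.52 in sh1, 1.43, 1.33 and 1.30 in sh3 and 1.36, 1.27 and 1.61 in shNC, and sh1 and shNC overlapped.

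Of the 11 members that use glutathione or hold back lipid peroxidation, 4 fell and 1 rose with sh1, and 3 fell with sh3. The shares over all tested genes were 18.8% lower and 19.9% higher with sh1, and 12.4% lower and 14.4% higher with sh3. Among genes with a mean of at least 1000 counts they were 26.7% and 36.2% with sh1, and 19.4% and 27.4% with sh3. GPX1, the main cytosolic glutathione peroxidase, had 87.4, 89.0 and 86.6 FPKM in sh1, 113, 111 and 115 in sh3 and 112, 111 and 117 in shNC. The sh1 libraries lay below all others and sh3 overlapped shNC, with log2 fold changes of -0.34 ± 0.03 and -0.01 ± 0.03 (SE, adjusted p = 3.5e-06 and 0.88, edgeR). GPX4, which reduces lipid hydroperoxides in membranes and restrains ferroptosis, had 69.8, 71.2 and 72.9 FPKM in sh1, 83.2, 81.2 and 86.3 in sh3 and 92.4, 93.5 and 88.0 in shNC. It was lower with both, at -0.32 ± 0.03 and -0.13 ± 0.03 (SE, adjusted p = 1.4e-05 and 0.017, edgeR). The sh3 call of GPX4 was lost without sh3 replicate 1 (-0.13), sh3 replicate 2 (-0.10), shNC replicate 1 (-0.12) or shNC replicate 2 (-0.11; adjusted p 0.0046 to 0.083 over the alternatives). GPX3, the secreted peroxidase, was not called at -0.87 ± 0.36 with sh1 (SE, adjusted p = 0.079, edgeR), and was called without sh3 replicate 1 (-0.87, adjusted p = 0.024, range 0.024 to 0.23). AIFM2, the ferroptosis suppressor that regenerates ubiquinol, averaged 2.18 ± 0.439 FPKM in sh1, 2.38 ± 0.218 in sh3 and 2.56 ± 0.200 in shNC (SD, n = 3 each). AIFM2 was called in no comparison, except with sh1 when sh1 replicate 3 was left out (log2 -0.37, adjusted p = 0.036). The AIFM2 span overlaps MACROH2A2 on the other strand, with 2458 mean counts against 844 for AIFM2, so the AIFM2 level is uncertain.

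Among the glutathione transferases, the abundant GSTP1 had 171, 173 and 172 FPKM in sh1, 195, 192 and 192 in sh3 and 177, 180 and 191 in shNC. It was called with neither hairpin, at -0.05 ± 0.03 with sh1 and 0.08 ± 0.03 with sh3 (SE, adjusted p = 0.21 and 0.081, edgeR). It was called with sh3 by DESeq2 (0.08, adjusted p = 0.044) and without shNC replicate 3 (0.12, adjusted p = 0.0037; range 0.0037 to 0.25), and with sh1 under library totals (-0.09, adjusted p = 0.037). GSTA4, which conjugates the lipid peroxidation product 4-hydroxynonenal, had 0.866, 0.853 and 0.996 FPKM in sh1, 0.976, 1.01 and 0.679 in sh3 and 1.34, 1.504 and 1.22 in shNC. All libraries labelled sh1 and sh3 were below shNC at this low level, with log2 fold changes of -0.55 ± 0.19 and -0.60 ± 0.19 (SE, adjusted p = 0.038 and 0.035, edgeR). Both calls were fragile, lost under 8 and 5 of 17 alternatives (adjusted p 0.018 to 0.13 and 0.02 to 0.12). The sh1 call needed shNC replicates 1 (-0.55) and 2 (-0.46) and each sh1 replicate (-0.51, -0.50 and -0.62), and the sh3 call needed sh3 replicate 3 (-0.43) and shNC replicates 1 (-0.60) and 2 (-0.51), with the value without each in brackets. GSTM3, which has close paralogs, averaged 1.79 ± 0.164 FPKM in sh1, 1.72 ± 0.0510 in sh3 and 1.97 ± 0.241 in shNC (SD, n = 3 each) and was not called.

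The microsomal transferases moved apart. MGST1 (ENSG00000008394, chromosome 12, 16347142 to 16589580), a membrane-bound transferase with peroxidase activity, had 5.74, 5.52 and 5.25 FPKM in sh1, 3.85, 3.77 and 4.23 in sh3 and 3.36, 3.35 and 3.93 in shNC. The sh1 libraries stood above all others, and sh3 overlapped shNC. MGST1 rose 1.58-fold with sh1 (log2 0.66 ± 0.07, SE, adjusted p = 1.3e-05, edgeR) and gave 0.16 ± 0.07 with sh3 (adjusted p = 0.13), or 0.24 (adjusted p = 0.0097) without shNC replicate 3. MGST2, at 4.11 ± 0.456 FPKM in sh1, 4.75 ± 0.337 in sh3 and 5.38 ± 0.392 in shNC (SD, n = 3 each), fell with sh1 (-0.35, adjusted p = 0.011, edgeR). That call was lost without sh1 replicate 2 (-0.27) or shNC replicate 2 (-0.29; adjusted p 0.0028 to 0.052 over the alternatives). The MGST2 span overlaps H3P16 and MAML3 on the other strand, with 344 and 132 mean counts against 1043 for MGST2. MGST3 averaged 8.20 ± 0.280 FPKM in sh1, 6.83 ± 0.221 in sh3 and 8.18 ± 0.542 in shNC (SD, n = 3 each), and fell with sh3 (-0.26 ± 0.05, SE, adjusted p = 0.0032, edgeR) where sh1 gave 0.04 ± 0.05 (adjusted p = 0.64).

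A feature shared by GPX1, GPX2, GPX3, GPX4 and TXNRD1, and by no other member in the annotation used, is a selenocysteine, inserted at an in-frame TGA codon that otherwise stops translation. The coding sequence around it is shown for these 5 (GENCODE release 29 on GRCh38, mRNA sense, TGA in capitals). In the peroxidases the codon stands early in the reading frame, at codon 49 of 203 in GPX1, while in TXNRD1 it is codon 648 of 649, followed by a glycine codon and the stop.
GPX1, codon at chr3:49358132-49358134, minus strand: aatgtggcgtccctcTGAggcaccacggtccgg
GPX2, codon at chr14:64942607-64942609, minus strand: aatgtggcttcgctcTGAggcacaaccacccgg
GPX3, codon at chr5:151025469-151025471, plus strand: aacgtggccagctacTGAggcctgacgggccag
GPX4, codon at chr19:1105403-1105405, plus strand: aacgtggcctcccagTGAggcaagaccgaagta
TXNRD1, codon at chr12:104348413-104348415, plus strand: ctccaggctggctgcTGAggttaa

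Of the 5 selenoenzyme members GPX1, GPX4 and TXNRD1 fell with sh1, and GPX4 with sh3. GPX2 gave -0.09 with sh1, a sign that turned when single libraries were left out, and GPX3 gave -0.87. Over all 22 tested genes with an annotated selenocysteine, a set chosen after the values were seen and including these members, 6 were lower and 6 higher with sh1, and 5 lower and 3 higher with sh3. Of all tested genes 18.8% were lower and 19.9% higher with sh1, and 12.4% lower and 14.4% higher with sh3. The median log2 fold change of the selenocysteine genes was -0.10 with sh1 and -0.04 with sh3, against -0.02 and -0.01 over all tested genes.

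The transcripts of the pentose phosphate enzymes PGD and TKT were lower with both hairpins. PGD, an NADPH-producing dehydrogenase of the oxidative branch, had 57.7, 58.2 and 58.5 FPKM in sh1, 65.9, 64.5 and 66.0 in sh3 and 76.9, 78.3 and 72.1 in shNC. It fell by 0.35 ± 0.03 with sh1 and by 0.21 ± 0.03 with sh3 on the log2 scale (SE, adjusted p = 4.6e-06 and 5.2e-04, edgeR). Transketolase, TKT, of the non-oxidative branch, had 57.8, 55.5 and 57.0 FPKM in sh1, 64.9, 63.9 and 65.1 in sh3 and 72.4, 76.4 and 74.1 in shNC. Its fall was 0.36 ± 0.03 and 0.20 ± 0.03 (SE, adjusted p = 1.2e-06 and 2.7e-04, edgeR), and for both genes the 3 groups did not overlap.

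Transaldolase, TALDO1, the partner of TKT in the non-oxidative branch, had 74.1, 73.7 and 74.9 FPKM in sh1, 72.5, 72.3 and 76.0 in sh3 and 70.1, 67.2 and 72.9 in shNC. It was called higher with sh1 (0.12 ± 0.03, SE, adjusted p = 0.017, edgeR) and not with sh3 (0.07 ± 0.03, adjusted p = 0.15). The sh1 libraries all lay above shNC, and sh3 overlapped shNC. The sh1 call was lost under 5 of 17 alternatives (adjusted p 0.0017 to 0.097), among them the fits without sh1 replicate 3 (0.11) and without shNC replicate 2 (0.09), and without shNC replicate 3 the sh3 value was called (0.10, adjusted p = 0.02). Malic enzyme, ME1, had 17.1, 17.2 and 17.6 FPKM in sh1, 14.7, 14.1 and 15.7 in sh3 and 18.5, 17.7 and 18.9 in shNC. Its sh3 libraries were the lowest, with log2 fold changes of -0.06 ± 0.05 with sh1 and -0.31 ± 0.05 with sh3 (SE, adjusted p = 0.38 and 4.0e-04, edgeR).

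**Figure D4:**
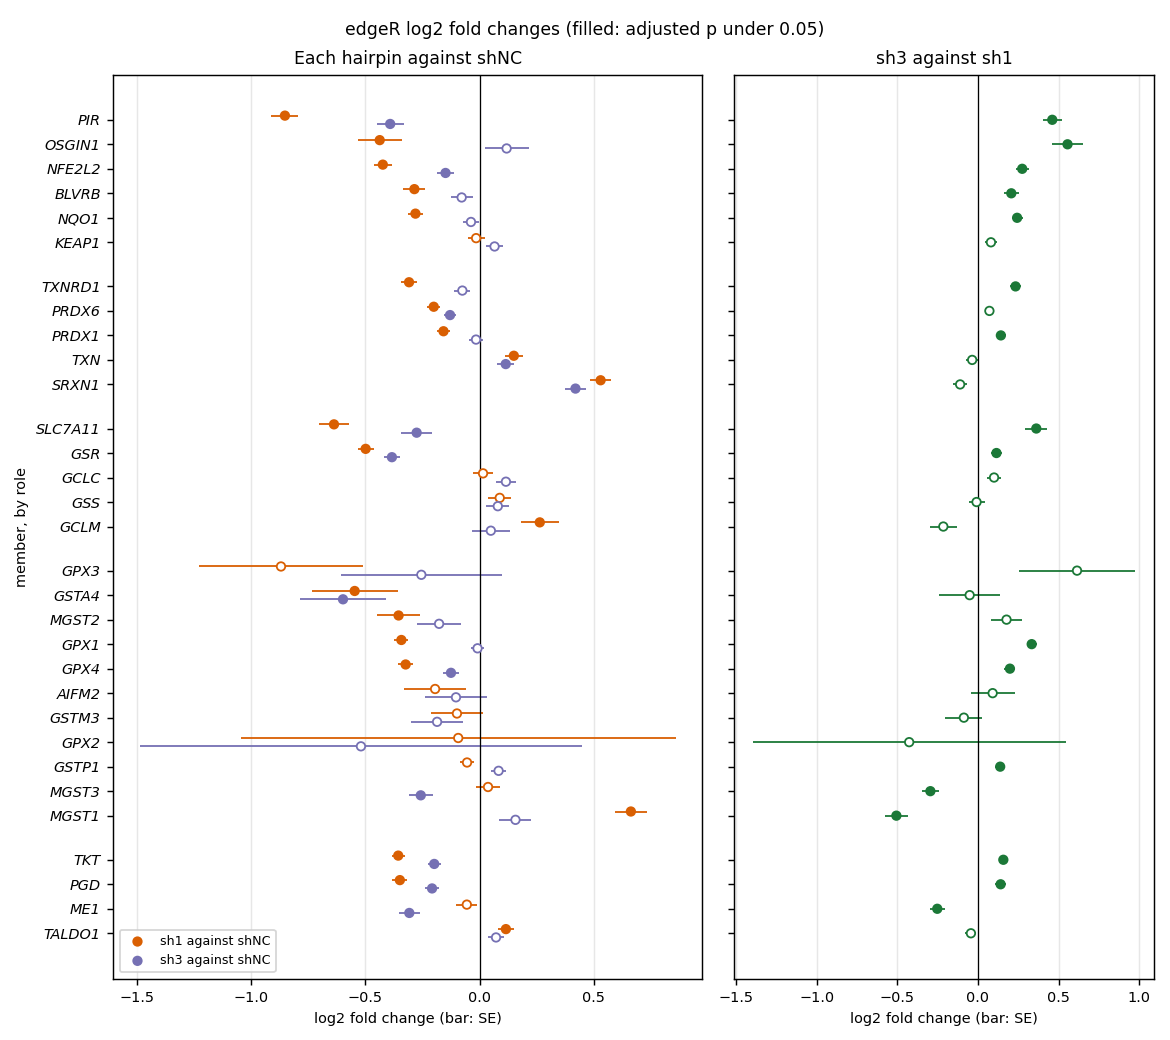
Log2 fold change of each member with its SE (bars), for sh1 (orange) and sh3 (purple) against shNC on the left and for sh3 against sh1 (green) on the right; filled symbols have an adjusted p under 0.05. With sh1 16 filled symbols lie left of 0 and 5 right of it, against 18.8% and 19.9% of all tested genes. Of the 17 filled green symbols 14 lie right of 0, where 12.9% of all tested genes were higher and 13% lower.

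Set directly against each other, the hairpins differed at 17 members, 14 higher and 3 lower in sh3 than in sh1, against 25.9% of all tested genes called, 12.9% higher and 13% lower. The median over members was 0.12, against 0.01 over all tested genes. Among members with a mean of at least 1000 counts 16 were called, 13 higher and 3 lower, against 43.4% called, 20.5% higher and 23% lower among such genes. Called with an absolute difference of at least 0.5 were 2 members, against 7.89% of all tested genes, and CPM ranges did not overlap at 21 members, against 41.8%. The 14 were NFE2L2, NQO1, OSGIN1, PIR, BLVRB, TXNRD1, PRDX1, SLC7A11, GSR, GPX1, GPX4, GSTP1, PGD and TKT. Of these OSGIN1 differed by 0.56 ± 0.10, PIR by 0.46 ± 0.06, SLC7A11 by 0.36 ± 0.07 and GPX1 by 0.33 ± 0.03 on the log2 scale (SE, edgeR, adjusted p = 0.0013, 1.5e-04, 0.0021 and 1.2e-05). The difference at GSR was small, 0.12 ± 0.04 (SE, adjusted p = 0.032, edgeR), and was lost under 5 of 17 alternatives (adjusted p 0.01 to 0.14). These included the fits without sh1 replicate 2 (0.10), sh1 replicate 3 (0.11), sh3 replicate 1 (0.09) and sh3 replicate 2 (0.10). The 3 members lower in sh3 than in sh1 were MGST1 at -0.51 ± 0.07, MGST3 at -0.29 ± 0.05 and ME1 at -0.25 ± 0.05 (SE, edgeR, adjusted p = 2.6e-04, 0.0015 and 0.0018). SRXN1 gave -0.11 ± 0.04 (SE, adjusted p = 0.097, edgeR) and passed without shNC replicate 3 (-0.11, adjusted p = 0.021), as did GCLM (-0.22, adjusted p = 0.0075).

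Antioxidant response elements share the core TGACNNNGC, where N is any base. It was searched on both strands in RefSeq windows on GRCh38.p14 that reach from 250 bases before to 50 after a gene's annotated start. Windows were given for 25 of the 31 members, 32 windows in all, and 12 of these (37.5%) held a match, against 13.3% of all 34943 windows. A match describes letters and not a bound site, and elements can also lie outside such short windows. The matches before the start are shown for the called members PGD, GCLM, GSTA4, ME1 and TXNRD1, which has 2 such matches, and for GSTP1, the most abundant member with a match, each in the sense of its gene with the match in capitals. A match on the other strand is printed as its reverse complement, as in PGD, GCLM and the second match of TXNRD1.
PGD, chr1:10398853-10398881, plus strand: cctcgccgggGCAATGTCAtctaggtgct
GCLM, chr1:93909446-93909474, minus strand: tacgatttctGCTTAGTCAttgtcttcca
GSTA4, chr6:52995285-52995303, minus strand, ending at the start: ccgggaccgcTGACCTGGC
ME1, chr6:83431170-83431198, minus strand: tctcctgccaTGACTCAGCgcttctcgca
TXNRD1, chr12:104215670-104215698, plus strand: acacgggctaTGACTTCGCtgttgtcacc
TXNRD1, second match, chr12:104286920-104286948, plus strand: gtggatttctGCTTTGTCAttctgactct
GSTP1, chr11:67583736-67583764, plus strand: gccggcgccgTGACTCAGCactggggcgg

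Of the 11 members with a match (also AIFM2, GPX2, KEAP1, MGST1 and PIR), 4 were lower and 2 higher with sh1, and 4 lower and 0 higher with sh3. Of the 14 members with windows and no match, 7 were lower and 3 higher with sh1, and 4 lower and 2 higher with sh3. The 6 members without a window had 5 lower with sh1 and 3 with sh3, and 0 higher. All tested genes had 18.8% lower and 19.9% higher with sh1, and 12.4% and 14.4% with sh3. The median log2 fold change was -0.09 with sh1 and -0.10 with sh3 for members with a match. It was -0.28 and -0.06 for those with windows and no match, and -0.28 and -0.15 for those with no window. SRXN1, higher with both hairpins, was among those without a match in its window.

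Beyond the members, 6 lists of other genes of these pathways held 118 genes of the table, 114 of them tested. With sh1 44 were lower and 24 higher, and with sh3 27 were lower and 11 higher, or 7 higher without shNC replicate 1. Over all tested genes 18.8% were lower and 19.9% higher with sh1, and 12.4% lower and 14.4% higher with sh3. Among genes with a mean of at least 1000 counts the shares were 26.7% and 36.2% with sh1, and 19.4% and 27.4% with sh3. The counts in each of the 6 lists, here and below, are to be read against both sets of shares. Of 26 other NRF2 target genes 16 were lower and 3 higher with sh1, and 12 lower and 3 higher with sh3, with medians of -0.29 and -0.15. The aldehyde dehydrogenase ALDH3A1 averaged 0.566 ± 0.0861 FPKM in sh1, 1.33 ± 0.180 in sh3 and 8.59 ± 0.871 in shNC (SD, n = 3 each). The aldose reductase AKR1B1 was lower at -1.18 and -1.28, and TRIM16L was higher at 0.40 and 0.53 (edgeR, adjusted p at most 0.015). Among 15 NRF2 partners and regulators, 6 were lower and 1 higher with sh1 and 3 lower and 2 higher with sh3. The median log2 fold changes of these 15 were 0.01 and -0.02. BACH1, a repressor that competes with NRF2 for its elements, gave -0.41 and -0.18 (edgeR, adjusted p = 1.7e-04 and 0.041), and BACH2, at or below 0.226 FPKM in every group mean, gave -1.93 and -0.56 (edgeR, adjusted p = 7.9e-06 and 0.037).

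Other NADPH supply genes had no common direction, with 6 of 17 tested lower and 6 higher with sh1 and 2 lower and 0 higher with sh3. Their median log2 fold changes were 0.10 and 0.04. IDH1, the cytosolic NADP-dependent isocitrate dehydrogenase, averaged 19.2 ± 0.444 FPKM in sh1, 24.5 ± 0.501 in sh3 and 33.4 ± 0.282 in shNC (SD, n = 3 each), with log2 fold changes of -0.77 and -0.44 (edgeR, adjusted p = 6.8e-09 and 1e-06). Among 20 other thioredoxin, peroxiredoxin and glutaredoxin genes, 6 were lower and 5 higher with sh1 and 5 lower and 2 higher with sh3. Medians of this list were -0.12 and -0.07. The peroxiredoxin PRDX5 gave -0.46 and -0.29 and the glutaredoxin GLRX -0.30 and -0.26, while GLRX3 gave 0.38 and 0.21 and GLRX5 0.43 and 0.17 (edgeR, adjusted p at most 0.035).

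Of 22 tested other glutathione genes 6 were lower and 6 higher with sh1 and 2 lower and 2 higher with sh3, with medians of -0.04 and -0.02. GPX8, a peroxidase of the endoplasmic reticulum, gave 0.31 and 0.45 and GSTM4, which has close paralogs, -0.59 and -0.67 (edgeR, adjusted p at most 0.0012). In the list of superoxide and hydrogen peroxide genes, 4 of 14 were lower and 3 higher with sh1 and 3 lower and 2 higher with sh3. Medians of this list were -0.14 and -0.05. The mitochondrial superoxide dismutase SOD2 averaged 9.23 ± 0.0499 FPKM in sh1, 8.62 ± 0.163 in sh3 and 22.5 ± 5.56 in shNC (SD, n = 3 each), where shNC replicate 3 had 16.2 FPKM against 25.1 and 26.4 in the other shNC libraries. Catalase, CAT, gave -0.65 and -0.31, the extracellular SOD3 0.61 and 0.66, and NOX5, under 0.2 FPKM in every group mean, 1.15 and 3.81 (edgeR, adjusted p at most 0.03).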

How the data were processed

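RNA from 9 SKOV3 libraries was sequenced in pairs after poly(A) selection and dUTP marking, per the labels' protocols. Named in the submitters' processing notes are the build GRCh38 and the tools edgeR, DESeq2, StringTie 2.1.6, HISAT2 2.2.1 and cutadapt 1.9. What each was used for, the annotation and whether strand was counted: not given in the sources used here. Raw whole-number counts of every gene were deposited by the authors. They also deposited FPKM, fragments scaled to transcript length and library size as the unit's name in the file headers says. FPKM is used for levels and counts for tests.

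Counts of all genes were fitted with edgeR 4.0.16 in R 4.3.3 (filterByExpr with a minimum count of 10, TMM, glmQLFit, glmQLFTest) on all 9 libraries with a mean for each group, and Benjamini-Hochberg adjustment over the 21296 genes tested. The standard error is the absolute log2 fold change over the square root of F. Alternatives were DESeq2 1.42.0, library totals, RLE factors, no filter, only the compared groups, the replicate block, limma 3.58.1 on log2(FPKM + 1) and log2(FPKM + 0.1), and leaving out each library. Replicate numbers did not pair the libraries. No library was a copy of another: within groups, chi-square over degrees of freedom was 8.51 to 17.3. The highest values, 15.6 and 17.3, were those of shNC replicate 3 against shNC replicates 1 and 2. The other pairs gave 8.51 to 10.3. Members and lists were chosen with earlier results of these data known. Values in every library are printed for NFE2L2, KEAP1, called members with an absolute log2 change of at least 0.5, the most abundant member of each role and some others chosen after their values were seen. From each list up to 2 genes per direction called with both hairpins are named, in order of the smaller change, and 1 gene that this rule names is not reported here. Counting error alone is not replicate error, since PCR copies are not independent molecules.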

Additional observations from a re-analysis of the deposited data

Results flagged for a closer look

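At 3 members the log2 fold changes of the hairpins had opposite signs and the direct comparison of sh3 with sh1 passed the test (edgeR). OSGIN1 gave -0.44 ± 0.10 with sh1 and 0.12 ± 0.10 with sh3, a difference of 0.56 ± 0.10 (SE, adjusted p = 0.0013). MGST3 gave 0.04 ± 0.05 with sh1 and -0.26 ± 0.05 with sh3, a difference of -0.29 ± 0.05 (SE, adjusted p = 0.0015). GSTP1 gave -0.05 ± 0.03 with sh1 and 0.08 ± 0.03 with sh3, a difference of 0.14 ± 0.03 (SE, adjusted p = 0.0081). The sign of MGST3 with sh1 turned without shNC replicate 1 (-0.01) and under library totals. In each pair at most 1 of the changes against shNC was called, and all 3 differences stayed past the threshold under all 17 alternatives.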

How the results depend on the processing

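No called member changed sign under any of the 17 alternatives. GCLM with sh3, not called, gave 0.17 without shNC replicate 3 and -0.02 without shNC replicate 2. Of the calls, 17 of 21 with sh1, 9 of 13 with sh3 and 16 of 17 between the hairpins held under all 17 alternatives. With sh1, 5 members were higher, and 3 under library totals, limma on log2(FPKM + 1) and limma on log2(FPKM + 0.1). With sh3, 2 were higher, and 1 under library totals and with no filter, and with both hairpins 2 were higher, and 1 under library totals, no filter and the replicate block. Members lower in sh3 than in sh1 numbered 3, and 5 with only the 2 groups compared. Leaving out 1 library gave 3 to 5 members higher with sh1, 1 to 7 with sh3 (7 without shNC replicate 3), 1 to 5 with both (5 without shNC replicate 3) and 3 to 5 lower in sh3 than in sh1 (5 without shNC replicate 3). The lower members were 14 to 17 with sh1, 8 to 11 with sh3 and 6 to 9 with both in these fits. Other genes of the pathway higher with sh3 were 7 to 14. The log2 fold change of STXBP6 with sh3 was 1.22 to 3.54, past the threshold without shNC replicate 3 alone (3.54, adjusted p = 0.046). Same-numbered libraries had deviations correlated at -0.09 to 0.03, so the numbers share only a label. With the replicate block 15 members were lower and 5 higher with sh1, and 11 lower and 2 higher with sh3. Library totals shifted the median gene by -0.04 with sh1 and -0.03 with sh3. Depth limits GPX2 and GPX3, and strand use limits members with overlapping genes.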

Other observations

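Some genes of the pathway lists were picked out after their values were seen. HMOX1, the heme oxygenase that NRF2 induces and BACH1 represses, had 19.7, 18.1 and 17.4 FPKM in sh1, 11.3, 11.2 and 12.6 in sh3 and 11.8, 10.3 and 11.7 in shNC. It was higher with sh1 (log2 0.74 ± 0.07, adjusted p = 4.5e-06) and not called with sh3 (0.06 ± 0.07, adjusted p = 0.61), and the hairpins differed by -0.68 ± 0.07 (SE, adjusted p = 2.3e-05, edgeR). The ferritin heavy chain FTH1, another NRF2 target, was lower with both, at -0.90 ± 0.04 and -0.45 ± 0.04 (SE, adjusted p = 2.1e-08 and 1.1e-05, edgeR).

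Called in opposite directions with the hairpins were 5 listed genes, CBR3, a carbonyl reductase, UGT1A6, a glucuronosyltransferase, MAFG, a small MAF partner of NRF2, ETHE1 and PXDN. The share of all tested genes called in this way was not counted. CBR3 gave -0.37 ± 0.10 with sh1 and 0.32 ± 0.10 with sh3, and MAFG -0.11 ± 0.03 and 0.13 ± 0.03 (SE, adjusted p at most 0.033, edgeR). UGT1A6, whose exons are shared with other genes of its locus, gave 0.48 ± 0.08 with sh1 and -0.49 ± 0.08 with sh3 (SE, adjusted p = 4.6e-04 and 9.1e-04, edgeR).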
